A study of Mus musculus with 8 samples.

Results

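The genes described here are those of the potassium channel family in mouse megakaryocytes, chosen as every listed gene whose symbol begins with Kcn. Antisense and opposite-strand transcripts were left out, which removed 2 names (Kcnq1ot1 and Kcnmb4os2). This left 68 of the 27679 genes in the count table. Megakaryocytes are the platelet-forming giant cells of the bone marrow. They were grown from lineage-depleted bone marrow of WT C57BL/6 mice for 3 days, in a 3D hydrogel (2% methylcellulose, stiffness of 30 to 60 Pa as Young modulus, 4 libraries) or in ordinary liquid medium (4 libraries). From both cultures the bigger, mature megakaryocytes were separated by sedimentation through a BSA gradient, so the comparison is of hydrogel with liquid among cells selected for size. The submitters describe the 4 cultures per condition as independent, and the p-values here measure the spread between these libraries.

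Potassium channels let potassium ions leave or enter the cell along their gradient and so set the membrane potential, which in turn sets the driving force for calcium entry. The family holds voltage-gated channels (Kv), inward rectifiers (Kir), two-pore domain channels that carry leak currents, and calcium- or sodium-activated channels, together with auxiliary subunits that alter their gating or traffic. In mouse megakaryocytes and platelets the voltage-gated channel Kv1.3, product of Kcna3, carries the main resting potassium current, and the calcium-activated Gardos channel KCa3.1, product of Kcnn4, opens when calcium rises.

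The sequences below are the start-site regions of 4 of the 6 genes that changed with culture, shown because Kcnj2, Kcnk13 and Kcnn4 were higher in hydrogel and Kcnj5 was lower. Each runs 5′ to 3′ along the gene's own strand, with 250 bases before and 50 bases after the start of the RefSeq gene model (build GRCm38.p6). Capitals mark every match, on either strand, to GATAA (read by GATA factors), GAGGAA (the PU box, read by the macrophage factor PU.1) and TGTGGT (read by RUNX factors). The regions are chr11:111065914-111066213 on the plus strand for Kcnj2, chr12:99964249-99964548 on the plus strand for Kcnk13, chr7:24370013-24370312 on the plus strand for Kcnn4, and chr9:32344295-32344594 on the minus strand for Kcnj5.
Kcnj2: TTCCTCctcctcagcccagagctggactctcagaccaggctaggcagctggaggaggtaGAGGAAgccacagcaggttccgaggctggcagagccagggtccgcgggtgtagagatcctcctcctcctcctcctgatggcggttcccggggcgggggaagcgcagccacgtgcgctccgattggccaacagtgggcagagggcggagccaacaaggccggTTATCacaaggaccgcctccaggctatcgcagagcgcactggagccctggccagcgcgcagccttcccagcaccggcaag
Kcnk13: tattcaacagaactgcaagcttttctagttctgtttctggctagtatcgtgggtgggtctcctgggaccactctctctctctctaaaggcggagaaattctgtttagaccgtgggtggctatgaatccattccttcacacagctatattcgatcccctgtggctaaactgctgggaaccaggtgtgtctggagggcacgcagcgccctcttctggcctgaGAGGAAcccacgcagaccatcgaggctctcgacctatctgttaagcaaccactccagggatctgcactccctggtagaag
Kcnn4: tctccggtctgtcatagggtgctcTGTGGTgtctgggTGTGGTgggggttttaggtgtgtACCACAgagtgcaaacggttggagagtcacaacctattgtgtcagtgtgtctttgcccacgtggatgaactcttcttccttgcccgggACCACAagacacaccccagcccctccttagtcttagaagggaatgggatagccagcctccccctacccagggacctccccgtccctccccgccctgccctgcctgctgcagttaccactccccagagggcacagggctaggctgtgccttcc
Kcnj5: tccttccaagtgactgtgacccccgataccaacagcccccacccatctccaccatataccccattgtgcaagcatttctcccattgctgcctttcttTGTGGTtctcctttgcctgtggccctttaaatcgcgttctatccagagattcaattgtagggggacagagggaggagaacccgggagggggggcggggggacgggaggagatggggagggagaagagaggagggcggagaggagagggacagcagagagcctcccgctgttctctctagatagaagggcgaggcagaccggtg
The Kcnj2 region held 2 matches to GAGGAA and 1 to GATAA, and the Kcnk13 region held 1 match to GAGGAA. The Kcnn4 region held 4 matches to TGTGGT, 2 read as printed and 2 on the opposite strand, and the Kcnj5 region held 1. Of the 20 channel genes with enough reads to be tested, 15 had such a region in the table, 20 regions in all. Of these 20 regions, 10% held GATAA, 40% held GAGGAA and 15% held TGTGGT, while over all 32851 regions of the same length the shares were 25.4%, 28.3% and 16.8%. The 7 genes with GAGGAA were Kcna3, Kcnf1, Kcnj2, Kcnk10, Kcnk12, Kcnk13 and Kcnq5. Among them only Kcnj2 and Kcnk13 changed with culture. The GC box GGGCGG, searched on both strands like the others, was in 60% of the 20 regions and in 35.7% of all regions. Kcng1, which also changed with culture, is named only.

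Library totals ran between 27012172 and 37059314 reads for hydrogel and between 28825468 and 49281611 reads for liquid. Levels are given as CPM (reads per 1000000 library reads), scaled between libraries by the trimmed mean of M-values (TMM). All 20 megakaryocyte markers were detected, with a summed level of 29334 to 42505 CPM in hydrogel and 35295 to 57589 CPM in liquid, and 14 of them fell in hydrogel while 0 rose. Of 24 monocyte and macrophage markers, 22 could be tested and 17 rose while 0 fell, and Cd163 and Timd4 stayed under 1 CPM in every library. Their summed level was 4209 to 9042 CPM in hydrogel and 1140 to 2484 CPM in liquid. Hydrogel 1 and liquid 2 stood apart from the rest of their groups: hydrogel 1 had the least macrophage signal of its group (4209 CPM, against 7585 to 9042 CPM in hydrogel 2 to 4), and liquid 2 the most of its group (2484 CPM, against 1140 to 1423 CPM). Of 9 tested markers of mast cells and basophils, 7 fell and 0 rose, with a summed level of 87.8 to 211 CPM in hydrogel and 150 to 629 CPM in liquid. Of 10 dendritic markers, 5 fell and 1 rose (129 to 230 CPM in hydrogel and 93.7 to 227 CPM in liquid). Of 11 neutrophil markers, 2 fell and 2 rose (390 to 919 CPM in hydrogel and 397 to 1741 CPM in liquid). Of 5 erythroid markers, 2 fell and 0 rose (84.7 to 158 CPM in hydrogel and 116 to 182 CPM in liquid). The same libraries stood apart in other sums. Megakaryocyte markers summed to 42505 CPM in hydrogel 1, against 29334 to 31538 CPM in hydrogel 2 to 4, and to 35295 CPM in liquid 2, against 51669 to 57589 CPM in the other liquid libraries. Liquid 2 also had the highest sums of its group for mast cell markers (629 CPM, against 150 to 382 CPM), neutrophil markers (1741 CPM, against 397 to 969 CPM) and dendritic markers (227 CPM, against 93.7 to 112 CPM). Hydrogel 1 had the lowest of its group for these lists. The part of these other markers in the results below was not tested. In bulk libraries such as these, fewer cells of a type and less RNA per cell cannot be told apart.

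Few potassium channel genes were expressed. All 68 had at least 1 read, which is also the least that any listed gene had, and 26 further annotated Kcn genes are not listed in the table and were not analysed here. Only 20 of the 68 had enough reads to be tested, 17 reached 1 CPM in 4 or more libraries and 14 did so in all 8. Of all 27679 listed genes, 13845 had enough reads to be tested and 11905 reached 1 CPM in 4 or more libraries. The other 48 had between 1 and 93 reads over all 8 libraries, with a median of 6, and together made up 0.167% of the reads of the family. Those of the 48 with 20 reads or more included Kcna4 (93), Kcnab3 (57), Kcnmb1 (31), Kcnq3 (29), Kcnip3 (27), Kcna2 (26), Kcnn3 (23) and Kcnrg (20). A middle group included Kcna7, Kcnc1, Kcnd3, Kcnh6, Kcnj1, Kcnj11, Kcnj12, Kcnj14, Kcnj15, Kcnj16, Kcnj6, Kcnk7, Kcnma1, Kcnn1 and Kcns1. The 23 genes with 5 reads or fewer included Kcna10, Kcnab1, Kcne1, Kcne1l, Kcnh2, Kcnh3, Kcnh4, Kcnh5, Kcnh7, Kcnip1, Kcnip2, Kcnip4, Kcnj4, Kcnj8, Kcnj9, Kcnk15, Kcnk3, Kcnk4, Kcnq1, Kcnu1, Kcnv1 and Kcnv2. Reads in a single library were all that 14 of the 48 had. The genes not listed are Kcna1, Kcna5, Kcna6, Kcnb2, Kcnc2, Kcnc4, Kcnd2, Kcne2, Kcne4, Kcng4, Kcnh1, Kcnh8, Kcnj13, Kcnj3, Kcnk1, Kcnk16, Kcnk18, Kcnk2, Kcnk9, Kcnmb2, Kcnmb3, Kcnn2, Kcns2, Kcns3, Kcnt1 and Kcnt2. At the other end, Kcnk6, Kcnj5, Kcnab2, Kcnf1 and Kcna3 together held 95% of the 355222 reads, and the other 63 genes the rest. Channel reads were 0.113% to 0.123% of a library in hydrogel and 0.127% to 0.16% in liquid.

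**Figure D1:**
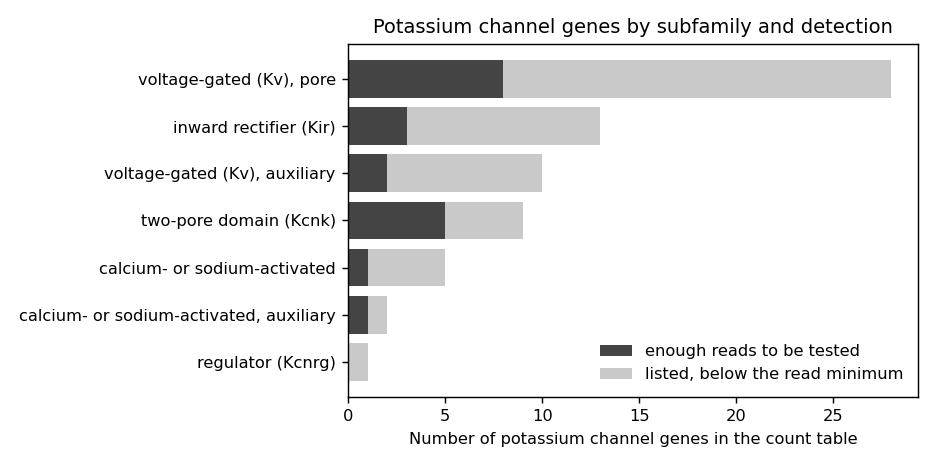
Number of potassium channel genes in each subfamily (x axis, genes) that had enough reads to be tested (dark) or were listed below the read minimum (light), over all 8 libraries. Two-pore domain channels had the largest tested share among subfamilies with more than 2 listed genes, 5 of 9, while 8 of 28 voltage-gated pore genes and 3 of 13 inward rectifiers were tested.

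By role, the tested genes were 8 of 28 voltage-gated pore subunits, 2 of 10 auxiliary subunits of voltage-gated channels, 3 of 13 inward rectifiers, 5 of 9 two-pore domain channels, 1 of 5 calcium- or sodium-activated pores and 1 of 2 of their auxiliary subunits. The regulator Kcnrg, with 20 reads in all, was not tested. Several channels that are prominent in heart, muscle or nerve had almost no reads. Kcnma1, the large-conductance calcium-activated BK channel, had 6 reads over the 4 hydrogel libraries and 2 over the 4 liquid libraries. Kcnq1, a cardiac and epithelial channel, had 3 reads in hydrogel and 0 in liquid. Kcnh2, the cardiac hERG channel, had 0 reads in hydrogel and 2 in liquid. A count of 0 allows up to 3 reads, which is 0.0241 CPM over the 124337522 hydrogel reads and 0.0201 CPM over the 149365993 liquid reads. These limits cover counting error only.

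Between genes, levels can be compared only per length, and here they are CPM per kilobase of merged exon. Kcnk6 had the highest level in both cultures, at 114 ± 16.9 CPM per kilobase in hydrogel and 127 ± 24.6 in liquid (SD, n = 4 each). It encodes TWIK2, a two-pore domain channel through which macrophages lose potassium during inflammasome activation. Kcnj5, which encodes the G-protein-gated inward rectifier Kir3.4 (GIRK4), came next with 58.1 ± 4.96 in hydrogel and 94 ± 19.7 in liquid on the same scale. Its range lay below that of Kcnk6 in hydrogel, whereas the ranges of these neighbours overlapped in liquid. Within each of the 4 liquid libraries, however, Kcnk6 lay above Kcnj5. Kcna3, at 29.6 ± 5.9 in hydrogel and 42.3 ± 11 in liquid, Kcnf1, at 27.5 ± 4.59 and 28.6 ± 8.56 in the same cultures, and Kcnab2, at 27 ± 2.24 and 28.3 ± 1.39, followed. The ranges of neighbours among these 3 genes overlapped in both cultures, so neighbours cannot be ordered beyond their spread, although Kcna3 lay above Kcnf1 within each of the 8 libraries. In liquid the range of Kcna3 (34.1 to 58.4) lay above that of Kcnab2 (26.7 to 29.9). Kcnk5 was sixth, at 7.08 ± 0.643 in hydrogel and 6.69 ± 1.6 in liquid, apart from the genes above and below it. The seventh place was held by Kcnk13 in hydrogel (2.14 ± 0.353) and by Kcng1 in liquid (1.49 ± 0.676), again in CPM per kilobase, and both overlapped the gene after them.

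**Figure D2:**
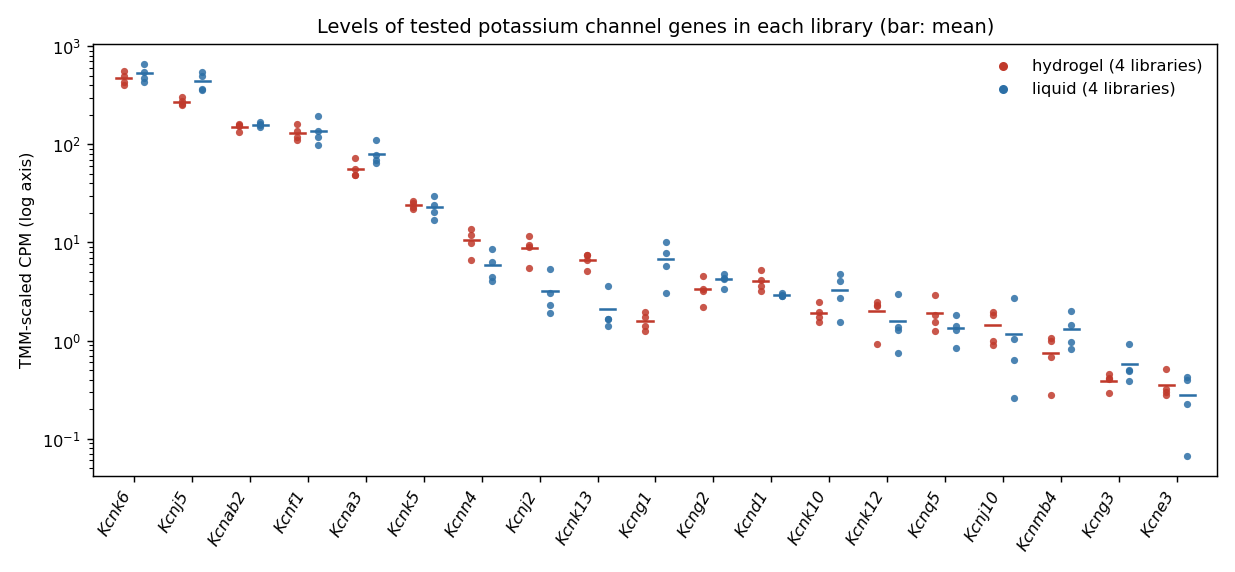
TMM-scaled CPM (y axis, log scale) of tested potassium channel genes in each of the 4 hydrogel (red, left) and 4 liquid (blue, right) libraries, with a bar at each group's mean. The levels span more than 3 orders on the axis; Kcnk13 and Kcnj2 lie higher in all hydrogel libraries than in any liquid library, and Kcnj5 and Kcng1 lie lower. CPM here are not divided by gene length, so the figure compares cultures within a gene.

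Of the 20 tested genes, 6 changed between hydrogel and liquid at an adjusted p under 0.05 (edgeR quasi-likelihood test, Benjamini-Hochberg over all 13845 tested genes). In hydrogel 4 rose, among them Kcnk13, Kcnj2 and Kcnn4, and 2 fell, Kcng1 and Kcnj5. The share called, 30%, is close to the 29.3% called among all tested genes, so it is not a result about potassium channels as a family. The 4 that rose are 20% of those tested, against 15.1% of all tested genes, and the 2 that fell are 10%, against 14.1%. The groups did not overlap for 6 of the 20 genes (30%), against 28.4% of all tested genes. They included Kcnk13, Kcnj2 and Kcnd1 above and Kcng1 and Kcnj5 below in hydrogel. The median log2 fold change of the 20 genes was 0.01, against −0.01 over all tested genes. A fit without hydrogel 1 and liquid 2 was added after seeing the data. These were the libraries of each group nearest the other group in macrophage markers. Leaving them out widens the difference for genes that vary with those markers. The fit is therefore no independent check, here or for single genes below. In it 6 of 20 tested channel genes rose and 4 fell. Of all 13890 genes then tested, 2995 rose and 2638 fell, so that 40.6% were called (29.3% with every library). Kcnk12 (log2 fold change 1.07, adjusted p = 0.0113) and Kcnj10 (1.31, 0.0331) joined those that rose. Kcna3 (−0.71, 0.00244) and Kcnk6 (−0.32, 0.0443) joined those that fell.

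**Figure D3:**
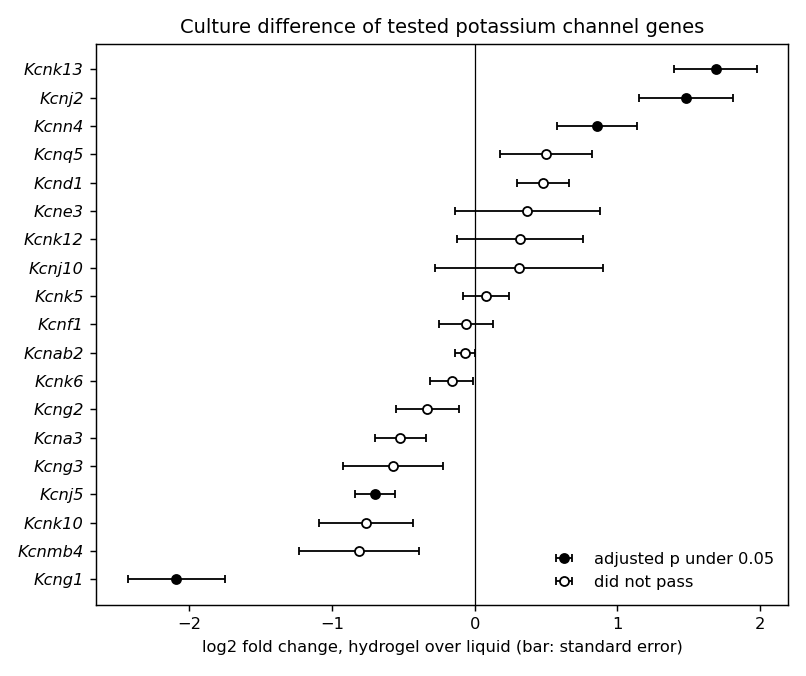
Log2 fold change of hydrogel over liquid (x axis) for tested potassium channel genes, each with its standard error as a bar; filled points passed an adjusted p of 0.05. The filled points run between 1.69 for Kcnk13 at the top and −2.09 for Kcng1 at the bottom, and the 14 open points lie between 0.50 and −0.81.

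Among voltage-gated pore subunits, Kcna3 had 72.3, 48.2, 55.9 and 48.8 CPM in hydrogel libraries 1 to 4, against 64.8, 69.1, 111 and 77 CPM in liquid libraries 1 to 4. Hydrogel 1 lay inside the liquid range and the other hydrogel libraries lay below it. The log2 fold change was −0.52 (SE 0.18) and did not pass (adjusted p = 0.0579). It passed without hydrogel 1 (−0.66, adjusted p = 0.0167), without liquid 1 (−0.61, 0.0489) and without liquid 2 (−0.58, 0.0356), and also with upper-quartile scaling (0.0366), with no low-count filter (0.0222) and in DESeq2 (0.03). Kcna3 did not pass in the other 5 single omissions (adjusted p up to 0.151), and the change was smallest without liquid 3 (−0.32, 0.127). Nor did it pass in limma-voom (0.0603) or with the replicate number as a block (0.0542). Kcna4, which encodes Kv1.4 and is named here after its values were seen, had too few reads to be tested with all 8 libraries. It had 4, 1, 2 and 0 reads in hydrogel 1 to 4 (7 in all), against 21, 22, 31 and 12 reads in liquid 1 to 4 (86 in all). Every hydrogel library was below every liquid library. With no low-count filter its log2 fold change was −3.37 (adjusted p = 0.00102). Kcna4 also reached the read minimum and passed, lower in hydrogel, in some single omissions. These were the fits without hydrogel 1, 2, 3 or 4 and without liquid 4.

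Kcnf1, Kcng1, Kcng2 and Kcng3 encode electrically silent subunits, which form no channel alone and alter other voltage-gated subunits by assembling with them. Kcng1 had 1.75, 1.25, 1.39 and 1.94 CPM in hydrogel 1 to 4, against 3.08, 5.75, 7.88 and 10.2 CPM in liquid 1 to 4. All hydrogel values lay below all liquid values, and the liquid values were widely spread. Its mean was 1.58 ± 0.32 CPM in hydrogel and 6.74 ± 3.05 CPM in liquid (SD, n = 4 each), 4.25-fold lower in hydrogel, with a log2 fold change of −2.09 (SE 0.34, adjusted p = 0.00181). It was the largest fall among the 20 tested genes and passed with each library left out in turn. Kcnf1 had 160, 118, 137 and 111 CPM in hydrogel 1 to 4, against 136, 98.4, 194 and 120 CPM in liquid 1 to 4. The groups overlapped, and the log2 fold change was −0.06 (SE 0.19, adjusted p = 0.85). Kcng2 and Kcng3 did not pass, with log2 fold changes of −0.33 and −0.57.

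Kcnd1 (Kv4.1) had a mean of 4.04 ± 0.92 CPM in hydrogel and 2.91 ± 0.0964 CPM in liquid (SD, n = 4 each). Its groups did not overlap, but it did not pass (log2 fold change 0.48, SE 0.18, adjusted p = 0.075). Kcnq5, a slowly activating voltage-gated channel gene, did not pass either, with a log2 fold change of 0.50.

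Of the auxiliary subunits, Kcnab2, a cytoplasmic beta subunit that binds Kv1 channels, had 133, 156, 161 and 152 CPM in hydrogel 1 to 4, against 156, 161, 167 and 149 CPM in liquid 1 to 4. Its spread was small and the groups overlapped. The log2 fold change was −0.07 (SE 0.07, adjusted p = 0.527), with a 95% interval of −0.24 to 0.10. Kcne3, a single-pass beta subunit, had 0.301, 0.281, 0.511 and 0.324 CPM in hydrogel 1 to 4, against 0.225, 0.427, 0.066 and 0.397 CPM in liquid 1 to 4. These low values overlapped, and the gene did not pass (adjusted p = 0.628). Kcnmb4, a beta subunit of the BK channel whose pore gene Kcnma1 had 8 reads in all, did not pass (log2 fold change −0.81, adjusted p = 0.179), and 20.8% of its exon length overlaps the opposite-strand Kcnmb4os2.

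The inward rectifiers moved in opposite directions. Kcnj2 encodes Kir2.1, a strong inward rectifier that holds the resting potential near the potassium equilibrium and carries the main inward current of macrophages. It had 5.53, 9.31, 11.5 and 8.99 CPM in hydrogel 1 to 4, against 2.31, 5.39, 1.91 and 3.07 CPM in liquid 1 to 4. All hydrogel values were higher, with the lowest hydrogel library (hydrogel 1) just above the highest liquid library (liquid 2). The mean was 8.83 ± 2.47 CPM in hydrogel and 3.17 ± 1.56 CPM in liquid (SD, n = 4 each), 2.8-fold higher, with a log2 fold change of 1.48 (SE 0.33, adjusted p = 0.00816). It passed with each library left out in turn, and without both hydrogel 1 and liquid 2 the log2 fold change was 2.05.

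Kcnj5 had 259, 249, 278 and 302 CPM in hydrogel 1 to 4, against 356, 368, 540 and 497 CPM in liquid 1 to 4. All hydrogel values were lower, and the liquid libraries formed a lower pair (1 and 2) and a higher pair (3 and 4). The mean was 272 ± 23.2 CPM in hydrogel and 440 ± 92.1 CPM in liquid (SD, n = 4 each), 1.62-fold lower in hydrogel, with a log2 fold change of −0.70 (SE 0.14, adjusted p = 0.00506). The gene passed with each library left out in turn. Channels of this group usually form from different subunits together, Kir3.4 most often with Kir3.1 of Kcnj3. Kcnj3 is not listed and was not analysed here. The other members of the group, Kcnj6 and Kcnj9, had 3 and 5 reads in hydrogel, against 14 and 0 reads in liquid. Kcnj10 (Kir4.1) did not pass (log2 fold change 0.31, adjusted p = 0.723), and its values in liquid ran between 0.257 CPM in liquid 1 and 2.7 CPM in liquid 2. The log2 fold change rested on those libraries: it was 1.12 without liquid 2 (adjusted p = 0.0878) and −0.01 without liquid 1 (adjusted p = 0.993).

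Among two-pore domain channels, Kcnk13, which encodes THIK-1, the main leak channel of microglia (brain macrophages), rose most. It had 5.12, 7.47, 7.45 and 6.66 CPM in hydrogel 1 to 4, against 1.67, 3.58, 1.67 and 1.4 CPM in liquid 1 to 4. All hydrogel values were higher, and hydrogel 1 and liquid 2 were the libraries nearest the other group. The mean was 6.67 ± 1.1 CPM in hydrogel and 2.08 ± 1.01 CPM in liquid (SD, n = 4 each), 3.22-fold higher, with a log2 fold change of 1.69 (SE 0.29, adjusted p = 0.00231). It passed with each library left out in turn, and without both hydrogel 1 and liquid 2 the log2 fold change was 2.20. Kcnk12, which encodes the related THIK-2, had 0.931, 2.28, 2.26 and 2.46 CPM in hydrogel 1 to 4, against 1.38, 2.99, 0.748 and 1.27 CPM in liquid 1 to 4. Hydrogel 1 was lower than its group and liquid 2 higher than any other library, so the groups overlapped, and the gene did not pass (log2 fold change 0.32, SE 0.44, adjusted p = 0.614).

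Kcnk6 had 561, 433, 499 and 404 CPM in hydrogel 1 to 4, against 544, 432, 665 and 473 CPM in liquid 1 to 4. The groups overlapped, and the log2 fold change was −0.16 (SE 0.15, adjusted p = 0.462), with a 95% interval of −0.48 to 0.17. Kcnk5, which encodes TASK-2, a channel opened by alkaline pH and cell swelling, had 26.5, 25.3, 22.7 and 21.8 CPM in hydrogel 1 to 4, against 29.7, 24.2, 20.2 and 17 CPM in liquid 1 to 4. Liquid libraries lay both above and below all hydrogel libraries, and the gene did not pass (log2 fold change 0.08, SE 0.16, adjusted p = 0.725). Kcnk10, which encodes the stretch-sensitive TREK-2, had a mean of 1.93 ± 0.384 CPM in hydrogel and 3.25 ± 1.41 CPM in liquid (SD, n = 4 each). It did not pass (log2 fold change −0.76, SE 0.33, adjusted p = 0.109), but did without liquid 4 (adjusted p = 0.0234).

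Kcnn4 was the 1 calcium-activated pore gene with enough reads to be tested. It had 6.55, 11.8, 9.82 and 13.8 CPM in hydrogel 1 to 4, against 6.32, 8.51, 4.03 and 4.44 CPM in liquid 1 to 4. Hydrogel 1 lay inside the liquid range, and the other hydrogel libraries lay above it. The mean was 10.5 ± 3.11 CPM in hydrogel and 5.83 ± 2.05 CPM in liquid (SD, n = 4 each), 1.81-fold higher, with a log2 fold change of 0.86 (SE 0.28, adjusted p = 0.0435). The call depended on single libraries: it was lost without hydrogel 2, 3 or 4 (adjusted p = 0.109, 0.077 and 0.122) and without liquid 1, 3 or 4 (0.0777, 0.103 and 0.118), as well as with upper-quartile scaling (0.0536) or library totals alone (0.0544). Without both hydrogel 1 and liquid 2 the log2 fold change was 1.29 (adjusted p = 0.000156).

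The macrophage markers differed between the cultures together with these channel genes. A macrophage score, the mean centred log2 CPM of the 22 tested markers, was 0.33, 1.25, 1.20 and 1.32 in hydrogel 1 to 4, against −1.45, −0.12, −1.46 and −1.07 in liquid 1 to 4. Culture accounted for 0.821 of the variance of this score (R squared), so the score and the culture cannot be told apart well in 8 libraries. With the score as a covariate, a fit added after seeing the data, 778 of all tested genes were called and none of the 6 channel genes was. The adjusted p was 0.76 for Kcnk13, 0.553 for Kcnj2, 0.452 for Kcnn4, 0.129 for Kcng1 and 0.397 for Kcnj5. The log2 fold change then was 0.27 for Kcnk13, −1.99 for Kcng1 and −0.48 for Kcnj5, while those of Kcnj2 (−0.41) and Kcnn4 (−0.59) changed sign. In the same fit Kcnf1 (log2 fold change 1.03, adjusted p = 0.0308) and Kcnk12 (−2.15, 0.0386) passed, each against the sign it had without the covariate. The part of the macrophage markers in these results was not tested beyond this.

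**Figure D4:**
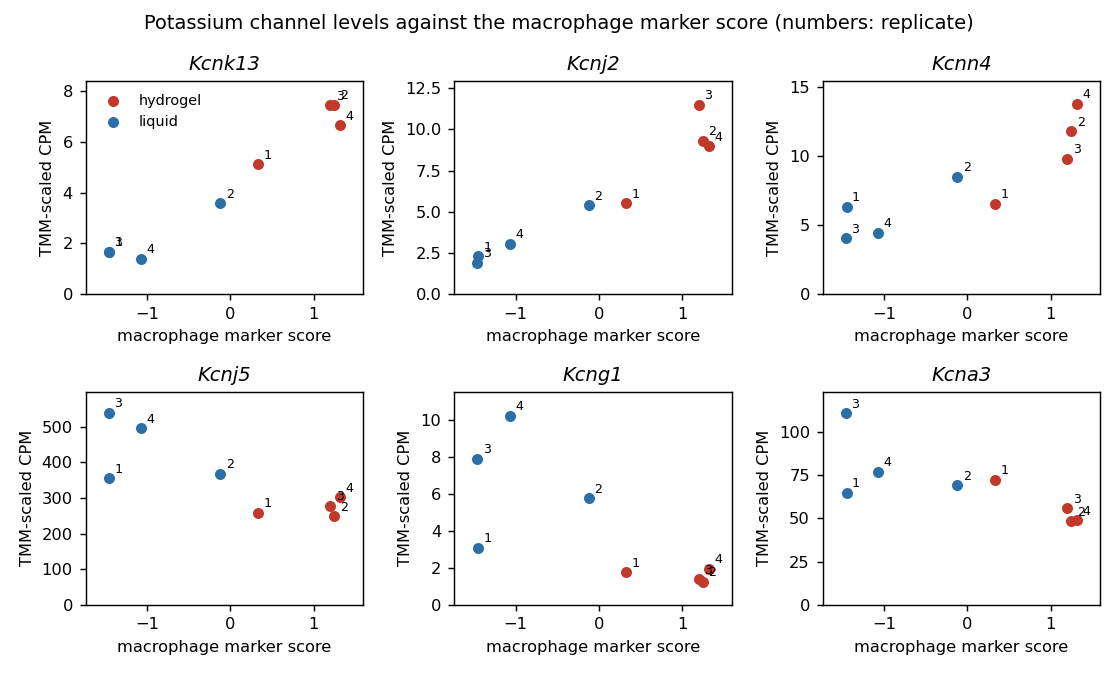
TMM-scaled CPM (y axis) of 6 potassium channel genes against the macrophage marker score (x axis, mean centred log2 CPM of 22 markers) in the 4 hydrogel (red) and 4 liquid (blue) libraries, numbered by replicate. Hydrogel 1 (score 0.33) and liquid 2 (−0.12) lie between the other libraries; Kcnk13 and Kcnj2 at those points are 5.12 and 5.53 CPM in hydrogel 1, against 3.58 and 5.39 CPM in liquid 2.

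Set against the marker sums within each library, a description chosen after the values were seen, the picture differed between genes. Genes that rose were set against macrophage markers only, and the others against megakaryocyte markers only. Macrophage sums were higher in every hydrogel library, and 14 of 20 megakaryocyte markers fell. A ratio can therefore differ between the cultures through its marker sum alone, and the part of the sums was not tested. Kcnk13 had 0.823 to 1.22 CPM per 1000 CPM of summed macrophage markers in hydrogel and 0.985 to 1.47 in liquid, so that the groups overlapped. Kcnj2 on this scale lay between 1.18 and 1.31 in hydrogel and between 1.68 and 2.17 in liquid. Kcnn4 lay between 1.09 and 1.83 in hydrogel and between 3.12 and 4.9 in liquid. Kcnj2 and Kcnn4 were thus lower per unit of macrophage marker in every hydrogel library, while their CPM were higher on average. Per 1000 CPM of summed megakaryocyte markers, Kcnj5 had 6.1 to 9.78 CPM in hydrogel and 6.72 to 10.4 in liquid, and Kcna3 had 1.58 to 1.77 in hydrogel and 1.22 to 1.96 in liquid. Both overlapped between the cultures. Kcng1 had 0.0412 to 0.0629 in hydrogel and 0.0581 to 0.198 in liquid, with only liquid 1 inside the hydrogel range. Kcnk6 had 13.1 to 15.8 in hydrogel and 9.15 to 12.2 in liquid, and Kcnf1 had 3.61 to 4.34 in hydrogel and 2.31 to 3.37 in liquid. Both ratios were thus higher in every hydrogel library, although in CPM neither gene passed (log2 fold change −0.16 for Kcnk6 and −0.06 for Kcnf1).

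Lists of genes that work with potassium channels were read from the same fit, in which 15.1% of all tested genes rose and 14.1% fell, with a median log2 fold change of −0.01. Of 15 accessory proteins with other names, such as sulfonylurea receptors and HCN channels, 9 were listed and 4 tested, and 0 passed in either direction, with a median log2 fold change of −0.27. Of 26 other genes of potassium transport, 19 were tested, 5 rose and 4 fell, with a median of −0.20. Slc12a4 (KCC1), a potassium-chloride cotransporter that lowers cell volume, had a mean of 18.3 ± 2.58 CPM in hydrogel and 9.58 ± 1.8 CPM in liquid (log2 fold change 0.94, SE 0.15, adjusted p = 0.00179). Of the tested subunit genes of the volume-regulated anion channel, Lrrc8d rose, Lrrc8a fell, and Lrrc8b (log2 fold change −0.21, adjusted p = 0.201) and Lrrc8c (0.04, 0.729) did not pass. Lrrc8d had 153, 153, 152 and 150 CPM in hydrogel 1 to 4, against 85.5, 84.7, 97.4 and 98.8 CPM in liquid 1 to 4. Hydrogel 1 and liquid 2 did not stand apart from their groups for this gene (log2 fold change 0.73, SE 0.07, adjusted p = 0.000194). The obligatory subunit gene Lrrc8a had 13.7 ± 1.65 CPM in hydrogel and 19.9 ± 2.4 CPM in liquid (−0.55, SE 0.12, adjusted p = 0.00824).

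Of 16 genes for the trafficking and turnover of channels, all were tested, 5 rose and 3 fell, with a median log2 fold change of −0.09. Sgk1, a kinase that raises the surface level of many ion channels, had 23, 54.4, 48.9 and 41.7 CPM in hydrogel 1 to 4, against 4.88, 13, 5.81 and 6.64 CPM in liquid 1 to 4. All hydrogel values were higher, with hydrogel 1 lowest and liquid 2 highest in its group, and the mean was 5.56-fold higher (log2 fold change 2.48, SE 0.34, adjusted p = 0.000867). Snx27, a sorting nexin that returns cargo to the cell surface, rose as well (0.52, SE 0.10, adjusted p = 0.00454). The anchoring protein gene Akap5 fell, with a mean of 7.48 ± 0.994 CPM in hydrogel and 17.4 ± 5.17 CPM in liquid (−1.22, SE 0.20, adjusted p = 0.00192), and so did Pdzd2 (−0.63, SE 0.14, 0.00993). The number that rose was 2 without hydrogel 2, without hydrogel 3, without liquid 1 or without liquid 4, and 3 without hydrogel 4. In these fits, in the same order, 19.1%, 20.5%, 23.3%, 21.6% and 21.7% of all tested genes were called in either direction. With every library that share was 29.3%. The genes that rose over all tested genes were 1476, 1528, 1694, 1585 and 1645 in these fits, in the same order. With every library 2096 rose. Whether the loss is particular to this list was not tested. With the macrophage score as a covariate, 1 of these 16 genes rose and 0 fell, and 3 of the transport genes rose and 1 fell. Of all tested genes, 5.62% were called in that fit.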

How the data were processed

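RNA-seq was measured in 8 libraries, 4 per culture, grouped by the sample labels. The authors deposited raw read counts for each gene, not normalized. Per the labels' protocols, libraries were stranded and polyA-selected. The submitters' processing notes name genome build GRCm39, HTSeq 0.13.5, STAR 2.7.10b and bcl2fastq. Which annotation and strand setting were used for counting is not given in the sources used here.

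Text lines without a gene (2) were removed, and 0 sample columns were unused. Symbols came from GENCODE release M21 by identifier: 26534 of 27679 matched and 1145 did not. Exon lengths came from the same release and may differ from the authors'. The filterByExpr step of edgeR 4.0.16 (R 4.3.3) kept 13845 genes. They were scaled by TMM and tested by quasi-likelihood for the culture term alone, with a Benjamini-Hochberg adjusted p of 0.05 as threshold. A standard error is the log2 fold change divided by the root of F. On simulated counts for hydrogel against liquid (13845 genes, 200 changed), the test recovered 40.3% of genes changed 1.5-fold, 71.6% changed 2-fold and 93.9% changed 4-fold, with 6.8% of 147 calls false. The data gave 4052 calls, so the adjusted threshold was stricter in the simulation. These shares therefore do not give the power of the test in the data.

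The members and lists were chosen with earlier results of these data known. Given per library were members that passed with at least 1 CPM in the higher group, the 6 with the highest level per kilobase, and a panel of 12. From other lists came up to 4 passing genes with the smallest adjusted p. Kcna4 and Kcnk12 are also given per library but meet none of these rules. Alternatives were other scalings and filters, DESeq2 1.42.0, limma-voom (limma 3.58.1), the replicate number as a block, a threshold of 0.01 and each library left out. Added after seeing the data were leaving out hydrogel 1 and liquid 2 together and the macrophage score as a covariate. Some members and partner genes that meet these rules are not reported here. Start-site sequences are from RefSeq. Figures used matplotlib 3.10.9.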

Additional observations from a re-analysis of the deposited data

Results flagged for a closer look

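Within groups of 4 libraries, 40 checks of the 20 tested genes for a library far from its group gave 2, and chance gives about 2. Kcnk12 was at 0.931 CPM in hydrogel 1, far below the other hydrogel libraries. Kcnk13 was at 3.58 CPM in liquid 2, far above the other liquid libraries. These are the libraries with the least macrophage signal in hydrogel and the most in liquid, and the part of that signal in either value was not tested.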

How the results depend on the processing

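Kcnk13, Kcnj2, Kcng1 and Kcnj5 kept their direction and passed under every scaling, filter, tool and omission tried, except with the macrophage score as a covariate. Over all genes, 4052 calls became 2091 at an adjusted p under 0.01, 778 with the macrophage score as a covariate, and 2700 to 4975 with single libraries left out. The number of channel genes that rose was 2 at an adjusted p under 0.01, 1 with the covariate, and 2 to 4 with single libraries left out. The number that fell was 4 with no low-count filter, 4 without both hydrogel 1 and liquid 2, 1 with the covariate, and 2 to 4 with single libraries left out. With no low-count filter, 68 channel genes and 27679 genes in all were tested. In that fit 13.8% of all genes were called in either direction, against 29.3% with the filter. The counts with single libraries left out include Kcna4 without hydrogel 1, 2, 3 or 4 and without liquid 4. With the covariate the log2 fold change turned sign, among genes that passed in either fit, for Kcnf1 (1.03), Kcnj2 (−0.41), Kcnk12 (−2.15) and Kcnn4 (−0.59). Among genes that passed in neither, it did so for Kcna3 (0.22), Kcne3 (−1.14), Kcng2 (0.29), Kcnj10 (−2.50), Kcnk10 (0.05), Kcnk6 (0.60), Kcnmb4 (0.23) and Kcnq5 (−0.31). The causes were not tested. Upper-quartile scaling split all calls into 1755 higher and 2492 lower, and library totals alone into 2280 and 1513, against 2096 and 1956. Libraries of the same replicate number correlated at 0.22, 0.33, −0.134 and 0.103 in their deviations, and the labels do not say whether a number marks shared marrow, so the libraries were not treated as pairs. With the replicate number as a block, 4 channel genes rose and 2 fell, with 4238 calls over all genes. Depth limits the 48 genes below the read minimum, of which Kcna4 was the 1 gene called with no low-count filter.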
